A study of Homo sapiens with 6 samples.

Results

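MiaPaCa2 is a human cell line from a pancreatic ductal adenocarcinoma, and 3 of its clones carry a CRISPR-Cas9 deletion of ZEB1. The variation among these 3 ZEB1-KO clones is described here. Genes were chosen by their own levels in these clones: a gene counted as high in 1 clone alone when it reached at least 10 CPM there and at least 8 times each of the other 2 clones, and as low in 1 clone alone when both others reached at least 10 CPM and were each at least 8 times higher. CPM stands for counts-per-million, with library sizes adjusted by TMM factors. Of 26334 gene symbols in the deposited count table, 39 were high and 29 were low in 1 clone alone, 68 genes in all. Because the levels themselves chose these genes, their differences are a description and carry no test. The 3 clones are replicates 1, 2 and 3 of the ZEB1-KO group and are called clones 1, 2 and 3. The study also held 3 wild-type (WT) clones of the same line, which serve here as the background of clonal variation. All 6 clones were grown in medium with serum and came from sorted GFP-positive cells that had been electroporated with a plasmid encoding Cas9 and GFP, which carried a ZEB1 guide RNA for the ZEB1-KO clones and none for the WT clones. Each clone gave 1 library, made with SMART-Seq2 from 2000 lysed cells. Differences between clones and differences between library preparations therefore cannot be told apart. In such bulk libraries, fewer cells with a transcript and less transcript per cell cannot be told apart either.

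ZEB1 is a zinc-finger transcription factor that binds E-box sequences in promoters and represses genes of the epithelial state, such as those for cell junctions and epithelial splicing regulators. It is one of several factors, with the Snail and Twist families, that drive the epithelial-mesenchymal transition, in which cells lose junctions, gain vimentin and matrix proteases and become motile. Clones grown from single edited cells can differ in the edited allele and in whatever their founder cells already differed in, which is why the spread among clones bears on how a comparison of knockout with wild type is read.

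The E-box that ZEB1 and the Snail factors bind is CACCTG, or CAGGTG when read on the opposite strand. It was searched in RefSeq promoters (build GRCh38.p14, 250 bases before to 50 bases after the transcription start), on both strands. The 3 promoters shown were picked among those that hold the box. They belong to SYNE4, which was present in all 3 ZEB1-KO clones, F2RL1, a gene high in clone 1 alone, and TMEM40, a gene low in clone 2 alone that held 2 boxes. Promoters of F11R, SNAI2 and ESRP1 were not available to search. They are printed 5′ to 3′ on the strand of the gene, with the box in capitals. The SYNE4 promoter is at chr19:36008764-36009063 (minus strand), that of F2RL1 at chr5:76818780-76819079 (plus strand) and that of TMEM40 at chr3:12759210-12759509 (minus strand).
SYNE4: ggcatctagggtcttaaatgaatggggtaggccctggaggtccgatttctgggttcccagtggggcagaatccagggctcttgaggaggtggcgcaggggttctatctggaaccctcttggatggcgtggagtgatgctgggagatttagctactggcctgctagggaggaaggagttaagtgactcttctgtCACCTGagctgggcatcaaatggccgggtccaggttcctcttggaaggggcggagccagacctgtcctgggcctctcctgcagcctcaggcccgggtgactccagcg
F2RL1: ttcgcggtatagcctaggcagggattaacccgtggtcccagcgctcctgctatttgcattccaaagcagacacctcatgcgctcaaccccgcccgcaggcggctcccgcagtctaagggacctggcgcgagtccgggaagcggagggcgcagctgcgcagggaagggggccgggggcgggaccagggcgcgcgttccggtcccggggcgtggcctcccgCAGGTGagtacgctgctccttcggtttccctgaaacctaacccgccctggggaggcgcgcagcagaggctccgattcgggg
TMEM40: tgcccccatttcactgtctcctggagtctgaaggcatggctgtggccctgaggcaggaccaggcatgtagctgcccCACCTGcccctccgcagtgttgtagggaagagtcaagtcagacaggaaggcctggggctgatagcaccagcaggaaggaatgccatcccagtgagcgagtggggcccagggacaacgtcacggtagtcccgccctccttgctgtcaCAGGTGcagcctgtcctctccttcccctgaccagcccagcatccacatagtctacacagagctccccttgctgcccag
The box started at position -57 in SYNE4 and -31 in F2RL1, and at -174 and -28 in TMEM40, counted from the transcription start. A promoter was found for 47 of the 68 genes, and 5 of these 47 (10.6%) held the box. Besides F2RL1 and TMEM40 these were ARFGEF3, MLPH and SLC9A4. Of the 26 promoters of genes high in 1 clone alone, 1 held the box. The box was present in 20.6% of all 27305 promoters and in 17.1% of the 6813 promoters of genes averaging 5 CPM or more in the ZEB1-KO clones. A match is a description of the letters and not a measured binding site.

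The ZEB1-KO libraries held 18909305, 36798770 and 32149376 counts in clones 1, 2 and 3. The WT libraries held 26242238 to 42876693 counts. Clone 1 was thus the shallowest library. A level of 3 counts corresponded to 0.0687 to 0.150 CPM across the 6 libraries, and lower values were set to 3 counts before a ratio was taken. Such floors cover counting error only, since the amplified reads carry no molecular identifiers. The line was checked against its markers: the keratins KRT8 and KRT18 were at 1632 to 2117 CPM and 2288 to 2844 CPM across the ZEB1-KO clones, beside vimentin (VIM) at 1342 to 2175 CPM. Of 20 markers of pancreatic acinar, ductal and islet cells in the table, 19 were under 1 CPM in all 3 clones. Of 21 markers of blood, endothelial and fibroblast cells, 15 were under 1 CPM in all 3 clones. Their summed level was 2227, 2172 and 3103 CPM in clones 1, 2 and 3, of which RGS5 alone gave 2157, 2165 and 3088 CPM.

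ZEB1 itself was still counted in every clone and was not equal among them. Its level was 3.34, 3.46 and 11.5 CPM in clones 1, 2 and 3, so that clone 3 lay 3.44-fold above clone 1, while the WT clones lay at 31.2 to 34.0 CPM. In the same order its deposited TPM values were 0.849, 0.998 and 2.98. The 3 ZEB1-KO values did not overlap with the WT values. The deleted stretch of ZEB1 is not named in the labels, so its counted exons may lie outside it.

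The 5 marker genes of the clones fell into 2 kinds. SYNE4, which encodes the epithelial nesprin-4 of the outer nuclear membrane, was at 17.2, 25.2 and 12.8 CPM in clones 1, 2 and 3. F11R, the gene for the tight-junction protein JAM-A, was at 83.1, 94.3 and 74.7 CPM. These genes were thus within 2-fold among the clones, with ratios of 1.97 and 1.26 between the highest and lowest clone, and each clone lay above all WT clones. The remaining 3 markers differed from clone to clone. SNAI2 encodes the repressor Slug, and it was at 5.14, 160.0 and 19.7 CPM, highest in clone 2 by 8.12-fold over clone 3. ESRP1, an epithelial splicing regulator, had 12, 208 and 3 counts, or 0.599, 5.14 and 0.0934 CPM, and was also highest in clone 2. The N-cadherin gene CDH2 had 3, 11 and 69 counts, or 0.150, 0.272 and 2.15 CPM, and was highest in clone 3. Clone 2 was therefore the highest of the 3 in both the mesenchymal regulator SNAI2 and the epithelial regulator ESRP1, and ESRP2 had 0, 2 and 1 counts.

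The epithelial surface genes E-cadherin (CDH1) and EPCAM were at or close to the floor in all 3 clones. CDH1 had 1, 4 and 0 counts and EPCAM 0, 2 and 0 counts in clones 1, 2 and 3, where 3 counts correspond to 0.150, 0.0741 and 0.0934 CPM. OVOL2, a repressor of mesenchymal genes, was at 2.74, 2.45 and 1.09 CPM, and SNAI1, the gene for Snail, at 2.39, 1.14 and 1.28 CPM, both highest in clone 1. VIM spanned 1342, 2175 and 1391 CPM, a ratio of 1.62 between clones 2 and 1, and FN1, the fibronectin gene, stayed between 0.716 and 0.963 CPM.

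**Figure D1:**
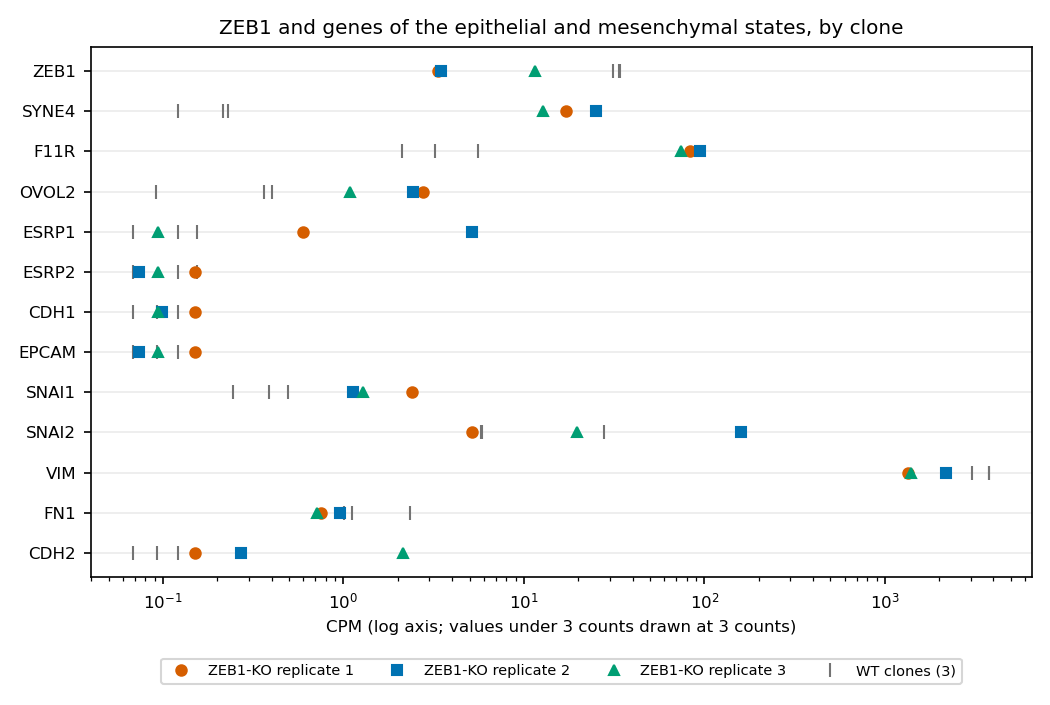
Level of ZEB1 and 12 genes of the epithelial and mesenchymal states in each clone, in CPM on a log axis. Coloured symbols are the 3 ZEB1-KO clones and grey ticks the 3 WT clones. SYNE4 and F11R lie close together in the 3 ZEB1-KO clones, whereas ESRP1, SNAI2 and CDH2 are spread, with ESRP1 and SNAI2 highest in replicate 2 and CDH2 in replicate 3.

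Most of the transcriptome was shared by the 3 ZEB1-KO clones. In all 3 of them 10594 genes reached at least 1 CPM, while 1531 did so in 1 or 2 clones and 14209 in none. Among the 8744 genes with a mean of at least 5 CPM, 6903 (78.9%) stayed within 2-fold between the highest and the lowest clone. Another 300 (3.43%) spanned at least 4-fold and 134 of these (1.53% of 8744) at least 8-fold. The median ratio of highest to lowest clone was 1.53. The WT clones gave 84.6% within 2-fold, 3.25% at 4-fold or more and 1.58% at 8-fold or more over 8532 genes, with a median ratio of 1.44. The common biological coefficient of variation was 0.382 among the ZEB1-KO clones and 0.360 among the WT clones over 13659 genes. Pearson's r of log2(CPM + 1) across the 8744 genes was 0.935 between clones 1 and 2, 0.942 between clones 1 and 3 and 0.921 between clones 2 and 3, as a description over genes that are not independent replicates. At least 8-fold apart were 67, 73 and 78 genes for the same pairs. Clones 2 and 3 were thus the least alike by both measures. They also had opposite trends with the GC content of transcripts, given below, whose part in this distance was not tested.

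The most abundant transcripts were shared. By the highest minimum of the deposited TPM, a level per length that can be compared between genes, the leading transcript was TMSB4X, the actin-sequestering thymosin beta-4, at 63432, 55504 and 63854 TPM in clones 1, 2 and 3. FTL, the ferritin light chain, followed at 15425, 18424 and 24922 TPM. The calcium-binding protein S100A4, often used as a marker of the mesenchymal state, was at 7094, 7473 and 8454 TPM, and its relative S100A6 at 8921, 6936 and 6827 TPM. ACTB, the cytoplasmic actin beta, was at 5382, 11609 and 5604 TPM and stood out by its level in clone 2. The ribosomal protein genes RPS18, RPS27, RPS14, RPLP1 and RPL19 completed the 10. RPS14 was nearly equal at 5526, 6206 and 5438 TPM, whereas RPS18 at 15227, 10105 and 7054 TPM was highest in clone 1.

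Clone 1 had 11 genes high in it alone, 0.154% of the 7130 genes that could have been called. PDLIM1, an actin-associated PDZ and LIM domain protein, was at 567, 7.06 and 20.8 CPM in clones 1, 2 and 3, 27.3-fold above clone 3. Its WT levels lay at 1.82 to 6.29 CPM, so that clone 1 stood apart from all 5 other clones. F2RL1, which encodes the protease-activated receptor PAR2, was at 135, 6.15 and 0.840 CPM, 22.0-fold above clone 2. PROCR, the receptor of protein C, was at 68.7, 7.16 and 5.76 CPM, with WT clones at 2.51 to 26.9 CPM. Both of these genes encode receptors of the coagulation protease system, and both were highest in clone 1 of all 6 clones. COL3A1, the chain of type III collagen, was at 59.7, 0.618 and 5.85 CPM, and WT clones spread over 0.527 to 18.4 CPM. Other genes lay lower, at 10.5 to 24.4 CPM in clone 1. They were the antisense RNA THSD4-AS2 (24.4, 0.494 and 2.12 CPM), C7orf69, LINC01447, ACRC, the calmodulin-dependent kinase gene CAMK1G and the liprin gene PPFIBP2. CAMK1G had 265, 0 and 1 counts in clones 1, 2 and 3. Since SMART-Seq2 does not mark strand, reads of THSD4-AS2 and THSD4 cannot be separated.

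In clone 1, 8 genes were low in it alone, 0.122% of 6584. KLK5, a secreted kallikrein-related protease, was at 6.69, 267 and 79.9 CPM in clones 1, 2 and 3, against 0.344 to 22.9 CPM in WT clones. TNC, the matrix glycoprotein tenascin-C, had 4, 1686 and 538 counts, or 0.200, 41.6 and 16.7 CPM. WT clones held only 0.0810 to 0.278 CPM of TNC, so that clone 1 lay within the WT range and clones 2 and 3 above it. HAPLN1, which links hyaluronan to proteoglycans, was likewise lowest in clone 1 and within the WT range there, at 3.14, 42.1 and 95.8 CPM beside 0 to 13.7 CPM in WT clones. The other genes had the opposite placing. SPATS2L was at 9.03, 98.3 and 91.6 CPM and ARHGAP29, a GTPase-activating protein, at 0.249, 12.3 and 45.3 CPM. FAM46A, a noncanonical poly(A) polymerase gene, was at 2.89, 24.2 and 33.7 CPM. For these genes and for HOXB2 and HOXB7, clone 1 lay below all WT clones.

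Clone 2 had 10 genes high in it alone, 0.138% of 7259. SNAI2, at 5.14, 160.0 and 19.7 CPM in clones 1, 2 and 3, was the most abundant of these, and WT clones lay at 5.77 to 27.6 CPM. ACKR3, a scavenging receptor of the chemokine CXCL12, was at 6.24, 68.6 and 0.840 CPM with WT clones at 0.458 to 5.55 CPM. In both genes clone 2 exceeded all 5 other clones. SNAI2 missed the rule under RLE scaling and under TMM over the ZEB1-KO libraries alone, where 67 of the 68 genes remained. C15orf48 (0.848, 34.4 and 3.33 CPM) and KANK4 (2.20, 29.6 and 0.560 CPM) did not stand apart from WT, since WT clones reached 415 and 62.4 CPM. ACSS1, a mitochondrial acetyl-CoA synthetase, was at 2.10, 17.5 and 0.498 CPM. The antiviral, interferon-inducible genes OASL and RSAD2 were at 0.0499, 16.6 and 1.68 CPM and 0.150, 10.3 and 0.467 CPM, and under 1 CPM in every WT clone. MT1F, a metallothionein, had 1, 687 and 0 counts, and TYRP1, a melanin-synthesis enzyme, had 1, 432 and 0 counts. LOC153910 was at 0.599, 12.8 and 0.0934 CPM.

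In clone 2, 14 genes were low in it alone, 0.210% of 6666. MMP3, the matrix protease stromelysin-1, was at 345, 0.568 and 475 CPM in clones 1, 2 and 3, and MMP1, the interstitial collagenase, at 119, 1.75 and 824 CPM. Their WT clones held 0.0405 to 0.401 and 0.486 to 3.07 CPM, so that clone 2 was near the WT level and clones 1 and 3 were far above it. Next to them in the genome, MMP10, stromelysin-2, had the same order at 2.20, 0.272 and 10.6 CPM, though its levels did not reach the threshold. SCG2, secretogranin II of dense-core vesicles, was at 171, 1.73 and 834 CPM, and NTS, the peptide neurotensin, at 67.6, 0.642 and 369 CPM. VCAN, the matrix proteoglycan versican, was at 38.2, 0.321 and 119 CPM beside 0.185 to 1.33 CPM in WT clones. TNFSF18, the GITR ligand, was at 16.1, 0.272 and 37.0 CPM.

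The other 8 genes low in clone 2 lay within 2-fold between clones 1 and 3. APOBEC3G, a cytidine deaminase that restricts retroviruses, was at 87.9, 0.593 and 109 CPM in clones 1, 2 and 3. TSC22D3, which encodes the glucocorticoid-induced leucine zipper, was at 85.6, 6.55 and 66.9 CPM. The nuclear receptor gene NR2F1 was at 27.3, 1.33 and 23.2 CPM and its antisense neighbour NR2F1-AS1 at 19.5, 1.61 and 18.2 CPM, 2 genes whose reads cannot be assigned to a strand. PSG5, a pregnancy-specific glycoprotein whose family is near-identical in sequence, was at 61.3, 3.80 and 37.4 CPM and is uncertain for that reason. TMEM40 was at 37.8, 3.06 and 51.6 CPM, the planar polarity gene PRICKLE1 at 14.4, 0.914 and 13.5 CPM and ARFGEF3 at 12.8, 1.16 and 12.6 CPM.

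Clone 3 had 18 genes high in it alone, 0.257% of 7011, the most of the 3 clones. KLK7, a kallikrein-related protease, was at 4.44, 13.7 and 334 CPM in clones 1, 2 and 3, 24.4-fold above clone 2. CPA4, a secreted carboxypeptidase, was at 0.449, 0.766 and 24.2 CPM. The protease inhibitors SERPINE2 (protease nexin-1) and SERPINA3 (antichymotrypsin) were at 2.15, 1.04 and 94.8 CPM and 0.549, 0.445 and 25.5 CPM, yet WT clones reached 113 and 136 CPM. The Notch ligand gene JAG1 was at 7.08, 6.87 and 84.1 CPM, likewise inside the WT range of 0.308 to 124 CPM. MEST, an imprinted gene expressed from the paternal allele, was at 0.249, 1.16 and 139.8 CPM. SRPX was at 0.299, 0.173 and 98.6 CPM, and WT clones held at most 1.05 CPM. PRND, a relative of the prion protein gene, was at 7.68, 0.395 and 87.2 CPM.

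Transcriptional regulators and enzymes were also among the genes high in clone 3. NR5A2, a nuclear receptor that acts in pancreatic acinar cells, was at 2.84, 0.198 and 41.8 CPM in clones 1, 2 and 3, with WT clones at or under 0.412 CPM. PCGF5, a Polycomb ring finger protein, was at 4.59, 2.54 and 43.0 CPM. AKR1C2, an aldo-keto reductase, was at 2.94, 1.36 and 26.1 CPM, and its near-identical relative AKR1C1 at 94.4, 46.3 and 571 CPM, so that counts may be split between them. PPP1R1B, the phosphatase inhibitor DARPP-32, was at 0.200, 0.0741 and 21.0 CPM. SMR3B, a salivary gland protein gene, had 0, 2 and 665 counts. The last 5 genes were CA2, a carbonic anhydrase (0.200, 0.667 and 12.5 CPM), MAP1B, a microtubule-associated protein (1.20, 1.51 and 13.6 CPM), KCNMA1, a calcium-activated potassium channel (0.848, 0 and 11.5 CPM), the complement gene C7 (0.499, 0.0494 and 11.1 CPM) and the septin gene SEPT10 (1.65, 2.20 and 26.9 CPM). For SEPT10 and KCNMA1 even clone 3 lay below all WT clones, which held 39.6 to 59.0 and 14.8 to 25.4 CPM. In these genes the difference among clones was therefore a lower level in clones 1 and 2 than in any of the 4 other clones.

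In clone 3, 7 genes were low in it alone, 0.104% of 6728. DOCK11, an exchange factor for Cdc42, was at 146, 125 and 6.01 CPM in clones 1, 2 and 3, with WT clones at 94.2 to 247 CPM. GSTM3, a glutathione S-transferase, was at 130.2, 125 and 2.46 CPM, and GSTM1 had 437, 852 and 2 counts. They belong to a cluster of near-identical genes, whose counts may be split between copies, and GSTM4 was also lowest in clone 3, at 12.4, 12.9 and 2.86 CPM. MT1A, a metallothionein, was at 77.6, 37.2 and 3.30 CPM, and MLPH, melanophilin of melanosome transport, at 18.1, 10.6 and 0.747 CPM. PLTP, the phospholipid transfer protein, had 212, 604 and 2 counts. In DOCK11, GSTM1, GSTM3, MT1A, MLPH and PLTP clone 3 lay below all WT clones. The sodium-proton exchanger SLC9A4, at 28.1, 31.9 and 2.68 CPM, was above the WT clones (0.972 to 1.97 CPM) in every ZEB1-KO clone.

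**Figure D2:**
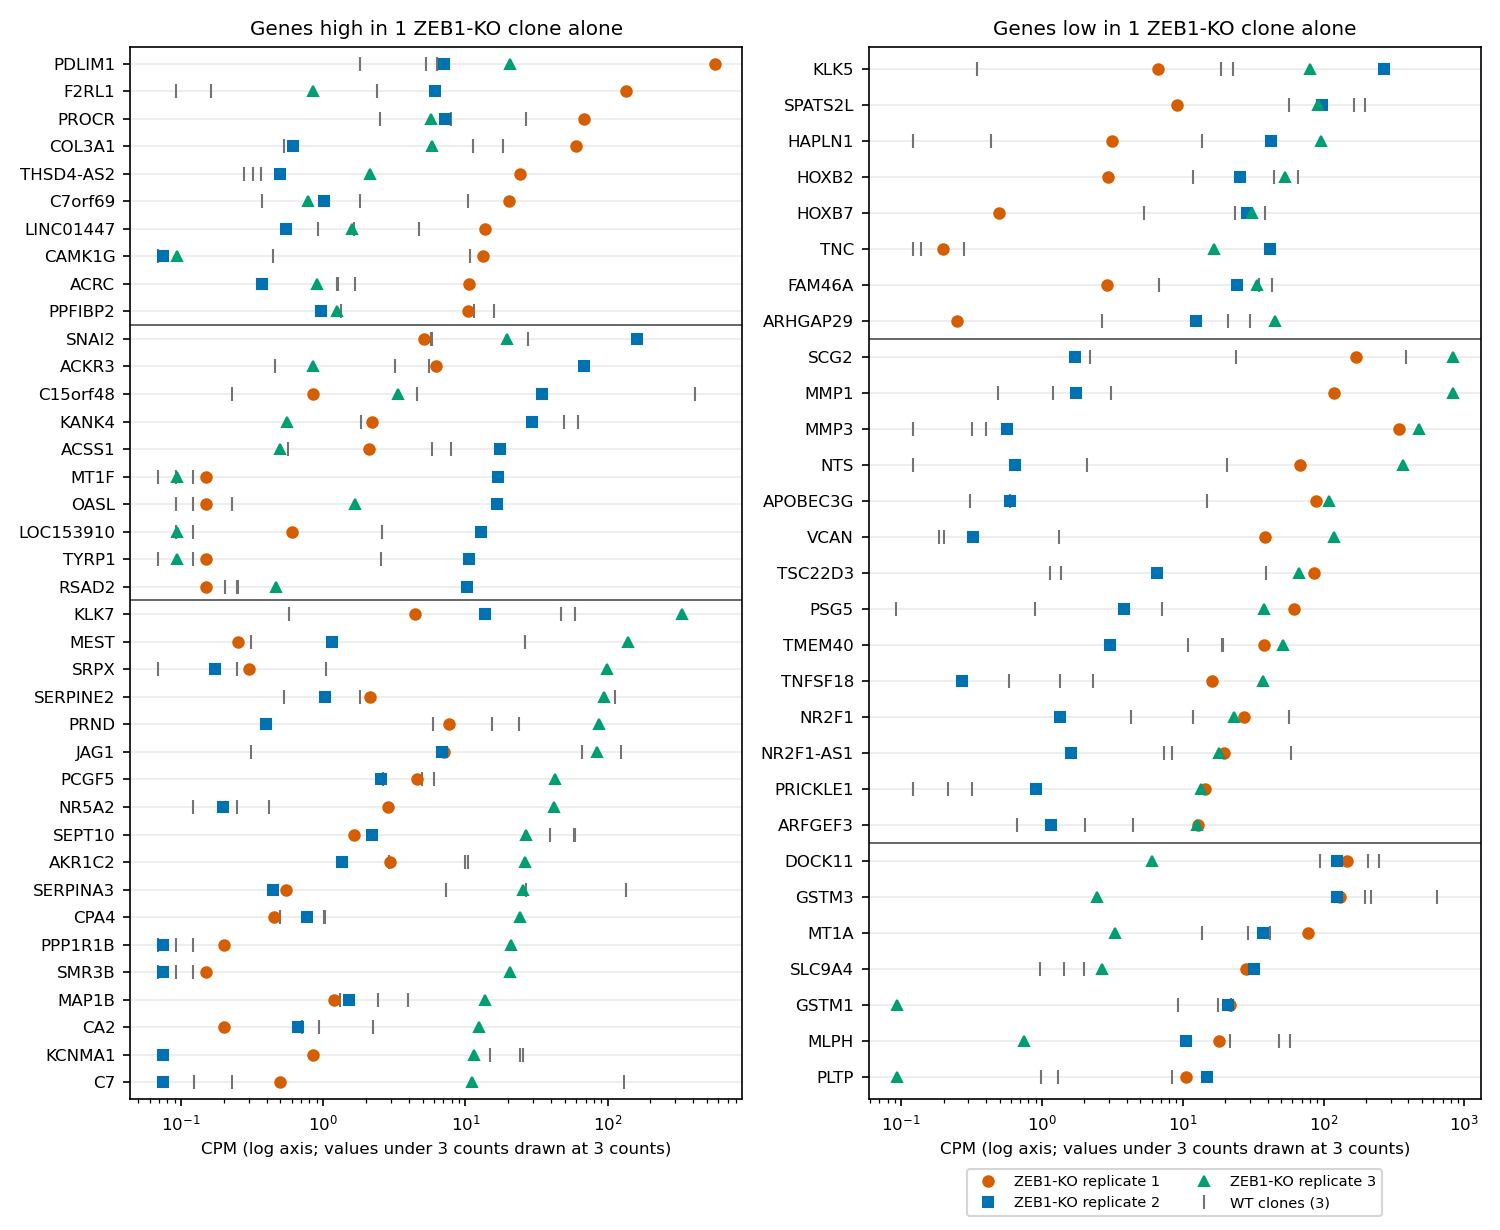
Level of genes high (left) and low (right) in 1 ZEB1-KO clone alone, in CPM on a log axis, grouped by clone from replicate 1 at the top to replicate 3 at the bottom. Coloured symbols are the ZEB1-KO clones and grey ticks the 3 WT clones, so that a symbol beyond all ticks, as for PDLIM1 in replicate 1, stands apart from WT, while those of JAG1, C15orf48 or SERPINA3 fall among them.

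The thresholds cut through a continuous range of ratios. Just inside lay SNAI2 in clone 2, at 8.12 times clone 3, and just outside the interferon-inducible IFI6, also in clone 2, at 7.25 times clone 3 (7.28, 99.6 and 13.7 CPM in clones 1, 2 and 3). For genes high in clones 1 and 3 the nearest inside were PPFIBP2 at 8.41 and AKR1C2 at 8.88, and the nearest outside the semaphorin gene SEMA3C at 6.89 and the repressor NAB1 at 7.56. For genes low in clones 1, 2 and 3 the nearest inside were FAM46A at 8.36, PSG5 at 9.84 and SLC9A4 at 10.5. Nearest outside were the kinase gene MAP3K5 at 7.92, the proteoglycan serglycin (SRGN) at 6.48 and S100A16 at 7.48.

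The same rule applied within the WT clones gave counts of similar size. There were 11, 15 and 19 genes high in WT clones 1, 2 and 3 alone, or 0.158%, 0.215% and 0.271% of the genes that could have been called. Genes low in 1 WT clone alone numbered 30, 6 and 4, or 0.451%, 0.0912% and 0.0609%. This made 45 high and 40 low in the WT clones, over 84 different genes, against 39 high and 29 low in the ZEB1-KO clones. The 2 sets shared 16 genes, 23.5% of the 68 and 19.05% of the 84. These were APOBEC3G, C15orf48, C7, CAMK1G, COL3A1, HAPLN1, JAG1, KANK4, KLK5, KLK7, MEST, NTS, PPFIBP2, SCG2, SERPINE2 and TSC22D3. Genes such as JAG1, MEST and SCG2 were thus uneven among clones whether or not ZEB1 was deleted. Between the highest and lowest WT clone, 30 of the 68 genes were at least 8-fold apart. The share was 1.58% of the 8532 genes averaging 5 CPM or more in WT clones, a filter not applied to the 68. Of the 39 genes high in 1 ZEB1-KO clone, 30 were above all WT clones in that clone, 7 were within the WT range and 2 were below it. Among the 39, 8 were under 1 CPM in all WT clones. Of the 29 genes low in 1 clone, 16 were below all WT clones in that clone, 10 were within the WT range and 3 were above it. These counts are a description, since the rule itself used the levels of the ZEB1-KO clones. Genes chosen as extreme in 1 clone are more likely to lie outside the WT range. The share of all genes that lie outside it was not counted.

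Pairs of these genes lay near each other in the genome, counted as the same direction in the same clone within 10 places of the RefSeq gene order. There were 6 such pairs. MMP1 and MMP3, low in clone 2, were adjacent, as were NR2F1 and NR2F1-AS1. GSTM1 and GSTM3, low in clone 3, were 2 places apart, LINC01447 and C7orf69, high in clone 1, were 4 apart, and CPA4 and MEST, high in clone 3, were 5 apart. HOXB2 and HOXB7, low in clone 1, were 8 apart.

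The HOXB cluster on chromosome 17, which encodes homeobox factors that carry positional identity, was low as a block in clone 1. Of 10 HOXB genes in the table, 9 were lowest in clone 1, against 2479 of 8744 genes over all, and 7 of the 8 that reached 1 CPM in both other clones were at least 8-fold lower there. HOXB7 had 10, 1166 and 989 counts in clones 1, 2 and 3, or 0.499, 28.8 and 30.8 CPM. HOXB9 had 2, 607 and 229 counts, HOXB6 2, 522 and 311 counts and HOXB5 1, 333 and 324 counts. HOXB2 kept a higher level, at 2.94, 25.6 and 53.1 CPM, and HOXB13, which lies apart from the rest of the cluster, differed only 2.28-fold, at 1.65, 3.75 and 2.24 CPM. In the WT clones the genes were also uneven. WT clone 1 held the lowest WT level of HOXB7, 5.31 CPM against 23.5 and 38.6 CPM, and clone 1 of the ZEB1-KO group lay below it. The median ratio of highest to lowest clone over the 7 HOX genes with a mean of at least 5 CPM was 61.7, against 1.53 over all 8744 genes. Genes such as HOXB5 (0.0499, 8.23 and 10.1 CPM) passed that mean through clones 2 and 3. The 1 CPM filter above was likewise set on clones 2 and 3 alone. Both measures are therefore a description and no separate support for a low block in clone 1.

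**Figure D3:**
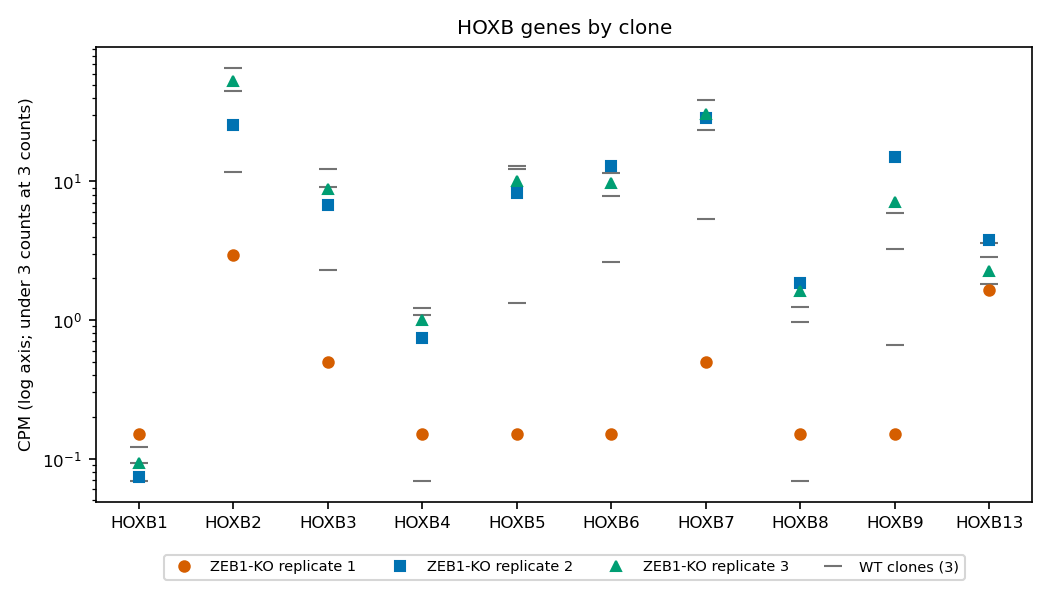
Level of each HOXB gene in the 3 ZEB1-KO clones (coloured symbols) and the 3 WT clones (grey bars), in CPM on a log axis, in order of gene number. Replicate 1 is the lowest ZEB1-KO clone from HOXB2 to HOXB9, whereas replicates 2 and 3 lie among or near the upper WT clones.

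A longer stretch of chromosome 12 was also low in clone 1. For each chromosome and clone, the log2 ratio of each gene to the mean of the other 2 clones was ordered by RefSeq gene order, and the point that best divided it into 2 sides of at least 20 genes was found. This search was added after the data were seen. Of 69 pairs of a chromosome and a ZEB1-KO clone, the largest step, 1.15 on the log2 scale, was on chromosome 12 in clone 1. The 115 genes from KDM5A to ALG10B had a median log2 ratio of -1.09, a 2.12-fold lower level, and 112 of them were below 0. The 344 genes from CPNE8 to ZNF268 had a median of 0.06. Clone 1 was the lowest of the 3 clones for 105 of the 115 genes (91.3%) and for 70 of the 344 (20.3%). The dividing point was set by these same ratios. The counts and medians of the 2 sides therefore describe the stretch and are no separate support for it. The next largest step on any other chromosome was 0.718, in clone 3. The first side had medians of 0.44 in clone 2 and 0.67 in clone 3, since each ratio is taken to the other 2 clones.

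Genes of that stretch include widely used reference and cancer genes. GAPDH, the glycolytic enzyme often used to normalize expression, was at 4188, 10357 and 10982 CPM in clones 1, 2 and 3, and TPI1, also of glycolysis, at 1789, 4534 and 4658 CPM. WT clones held 5718 to 6512 CPM of GAPDH, so that clone 1 lay below and clones 2 and 3 above all of them. For TPI1 WT clones held 4509 to 4676 CPM, with clone 1 below them and clones 2 and 3 among them. FOXM1, a factor of the cell cycle, was at 19.1, 81.0 and 40.9 CPM, and ETV6, a repressor of the ETS family, at 3.29, 8.47 and 10.7 CPM. CD9, a tetraspanin, was at 161, 249 and 369 CPM. WT clones held 146 to 202 CPM of CD9, so that clone 1 lay within the WT range and clones 2 and 3 above it. PKP2, a desmosomal plakophilin, had the lowest ratio of those named, at 0.249, 5.51 and 14.5 CPM, which is far beyond the median of the stretch. Exceptions in the same stretch were MGST1, a microsomal glutathione S-transferase, at 517, 377 and 198 CPM, and SCNN1A, an epithelial sodium channel subunit, at 16.1, 8.52 and 10.6 CPM, both highest in clone 1. All of these were picked after their values were seen. In the WT clones the medians of the same 115 genes were -0.40, 0.05 and 0.27 for WT clones 1, 2 and 3.

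**Figure D4:**
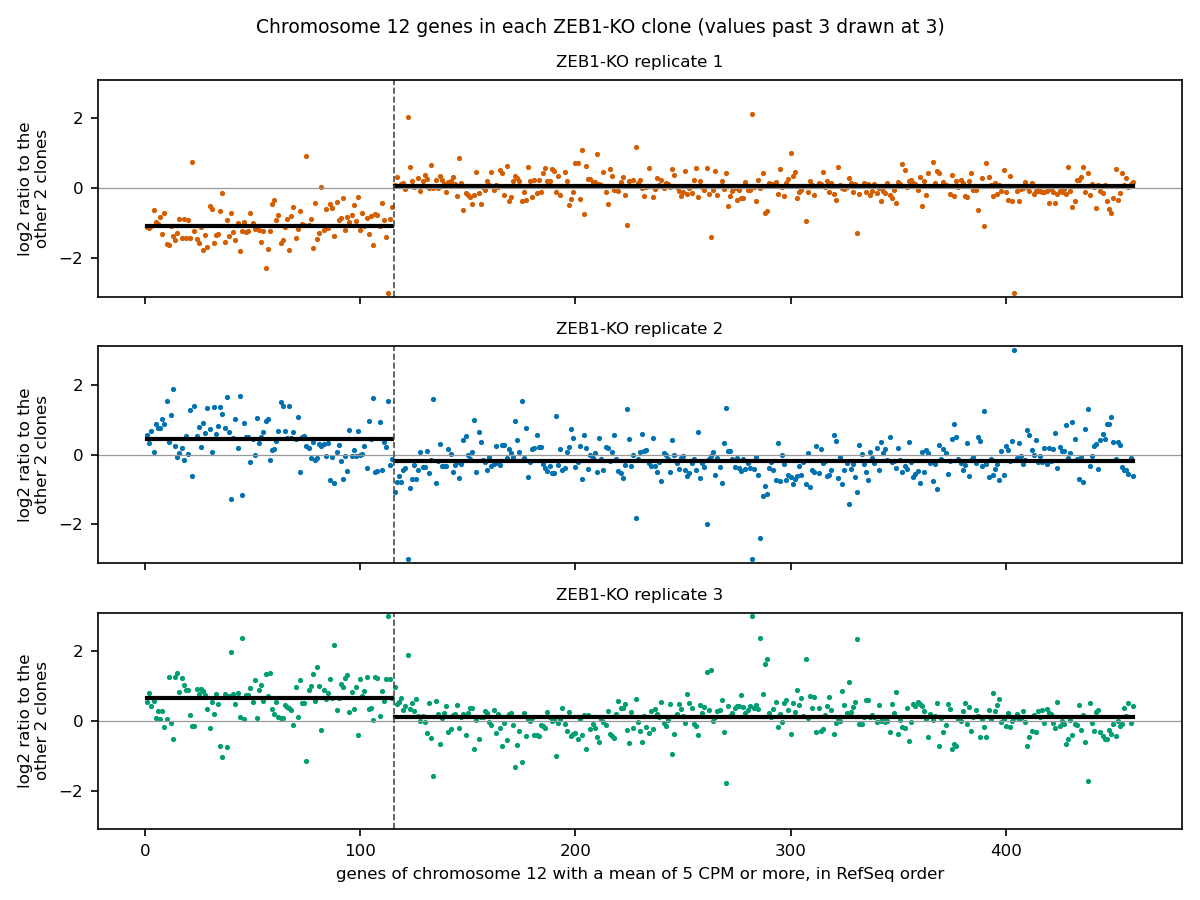
Log2 ratio of each chromosome 12 gene with a mean of at least 5 CPM to the mean of the other 2 ZEB1-KO clones, in RefSeq gene order, with 1 panel per clone. Black lines are the medians of the 2 sides of the dashed line, which for replicate 1 are -1.09 over 115 genes and 0.06 over 344 genes.

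Other chromosomes shifted less. The 440 genes of chromosome 5 had a median log2 ratio of -0.46 in clone 1 and 0.39 in clone 3. In clone 1 its 69 genes from CCDC127 to NNT had a median of -0.06, and the 371 genes from BRCAT54 to TRIM52-AS1 had -0.51. The 355 genes of chromosome 10 had -0.38 in clone 2. This shift was not along the whole chromosome. Its 82 genes from ZMYND11 to ZNF248 had a median of 0.07 in clone 2, and the 273 genes from ZNF33A to MTG1 had -0.50. On chromosome 20 in clone 1, 107 genes from RPN2 to PCMTD2 had a median of -0.68, against 0.01 for the 137 genes before them. Shifts of this size were also found among WT clones, with medians of 0.65 for chromosome 21 and -0.55 for chromosome 6 in WT clone 1.

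Gene lists gave the spread among the clones by pathway. Over the 29 genes of interferon response and antigen presentation with a mean of at least 5 CPM, 19 were lowest in clone 1 and 16 were highest in clone 2. Over all 8744 genes, 2479 were lowest in clone 1 and 3084 highest in clone 2. Under the other scalings of the libraries these list counts ranged from 19 to 20 and from 16 to 20. The list's median ratio of highest to lowest clone was 2.37, against 1.53 over all genes, and 1 member (OASL) was high in 1 clone alone. OASL, at 0.0499, 16.6 and 1.68 CPM, passed the mean of 5 CPM through clone 2 alone. Its place in these counts is therefore no separate support. IFI6 was at 7.28, 99.6 and 13.7 CPM in clones 1, 2 and 3, and ISG15, a ubiquitin-like modifier, at 13.0, 66.0 and 14.7 CPM. ISG15 was uneven among the WT clones too, at 55.5, 2.59 and 3.00 CPM in WT clones 1, 2 and 3. HLA-B, a class I antigen-presenting molecule, was at 25.7, 103 and 77.0 CPM, and the immunoproteasome subunit PSMB9 at 7.18, 28.1 and 38.7 CPM. Clone 2 thus led in IFI6, ISG15 and HLA-B, whereas clone 3 led in PSMB9. IFIT1 was highest in clone 3, at 18.4, 40.7 and 53.1 CPM, and the list as a whole did not follow 1 order. WT clones held 28.5 to 135.7 CPM of IFIT1. The summed level of all 44 listed genes was 1949, 2830 and 2653 CPM in clones 1, 2 and 3, against 2731 to 4366 CPM in WT clones.

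Matrix, protease and detoxification genes were spread too. The 12 mesenchymal and extracellular matrix genes had a median ratio of 2.51, with 1 member high (COL3A1) and 2 low (TNC and VCAN) in 1 clone alone, and 7 of the 12 were lowest in clone 3. Over all 8744 genes 2948 were lowest in clone 3, or 3708 when libraries were scaled by size alone. COL5A2, a chain of type V collagen, was at 413, 401 and 75.5 CPM in clones 1, 2 and 3, and the myosin light chain gene MYL9 at 8.13, 18.2 and 0.809 CPM. Of 13 proteases and their inhibitors, 2 were high and 2 low in 1 clone alone, with a median ratio of 1.95. The kallikrein genes KLK6 and KLK8, picked after their values were seen, were at 228, 1131 and 1953 CPM and 1.60, 8.37 and 14.3 CPM in the ZEB1-KO clones. WT clones were uneven too, with KLK6 at 3.57, 1209.6 and 1488 CPM and KLK8 at 0.0229, 50.6 and 35.8 CPM in WT clones 1, 2 and 3. Of 20 detoxification genes, 1 was high (AKR1C2) and 2 low (GSTM1 and GSTM3), with a median ratio of 2.43. The 5 metallothioneins had a median ratio of 3.07, with MT1F high in clone 2 and MT1A low in clone 3. MT1F, with 1, 687 and 0 counts in clones 1, 2 and 3, passed the mean of 5 CPM through clone 2 alone. Its spread is therefore no separate support. The most abundant of them, MT2A, was at 1946, 679 and 1209.5 CPM and highest in clone 1, and these genes are similar in sequence.

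Epithelial lists differed from one another. The 18 junction and polarity genes had a median ratio of 1.51, close to that of all genes, and 0 were high or low in 1 clone alone. The summed level of all 38 listed genes was 588, 519 and 651 CPM in clones 1, 2 and 3, with WT clones at 269.9 to 363 CPM, so that the groups did not overlap. This was not particular to the list. Summed keratins, epithelial surface genes and stress genes also lay above all WT clones. The last were at 2292, 2543 and 2161 CPM against 1661 to 1764 CPM. Summed mesenchymal, integrin, growth factor and histone genes lay below all WT clones, and sums of other lists overlapped. Among the junction and polarity genes PARD6B, a polarity protein, was the widest after PKP2, at 10.9, 9.98 and 58.8 CPM. The 5 keratins had a median ratio of 1.34 and the 9 epithelial surface genes one of 1.99. Only 4 epithelial regulators had a mean of at least 5 CPM, with a median ratio of 3.06. EHF, an ETS factor of epithelial cells, was at 222, 49.6 and 124 CPM, and RBM47, a splicing regulator, at 41.6, 18.8 and 35.2 CPM, both highest in clone 1 and lowest in clone 2. ELF3, a related ETS factor, was at 20.3, 16.3 and 5.70 CPM. Among 8 transcription factors of the transition, with a median ratio of 2.37, 1 (SNAI2) was high in 1 clone alone, and FOSL1 and SOX9 were also highest in clone 2, at 28.3, 69.7 and 36.0 CPM and 25.5, 58.2 and 30.5 CPM.

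Of 29 cell cycle genes, 18 were lowest in clone 1, against 2479 of all 8744 genes, with a median ratio of 1.59. Clone 3 was highest for 17 and clone 2 for 11 of them, an order that turned to 13 and 15 when libraries were scaled by size alone. Cyclin B1 (CCNB1) was at 820.4, 1268 and 2141 CPM in clones 1, 2 and 3. Of 21 genes of cholesterol and fatty acid synthesis, 14 were lowest in clone 3, against 2948 of all 8744 genes. In clone 3 the desaturase SCD was at 121 CPM against 419 and 243 CPM in clones 1 and 2. Of 32 ribosomal protein genes, 25 were highest in clone 1, against 2442 of all 8744 genes, with a median ratio of 1.49. Of 13 histone genes, 10 were lowest in clone 2 and 9 highest in clone 1, with a median ratio of 3.20. Over all 8744 genes 3317 were lowest in clone 2 and 2442 highest in clone 1. The summed level of all 23 listed histone genes was 3974, 3040 and 4725 CPM in clones 1, 2 and 3, and so highest in clone 3. HIST1H2BK was at 369.8, 80.7 and 281 CPM. Among the WT clones it was uneven too, at 200, 204 and 1725 CPM in WT clones 1, 2 and 3. The oligo(dT) primer of SMART-Seq2 reaches polyadenylated RNA, so that these values do not cover histone RNA without a tail. Under the other scalings the ribosomal count ranged from 24 to 25, the histone counts from 9 to 11 and at 9, and that of cholesterol genes from 13 to 16.

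**Figure D5:**
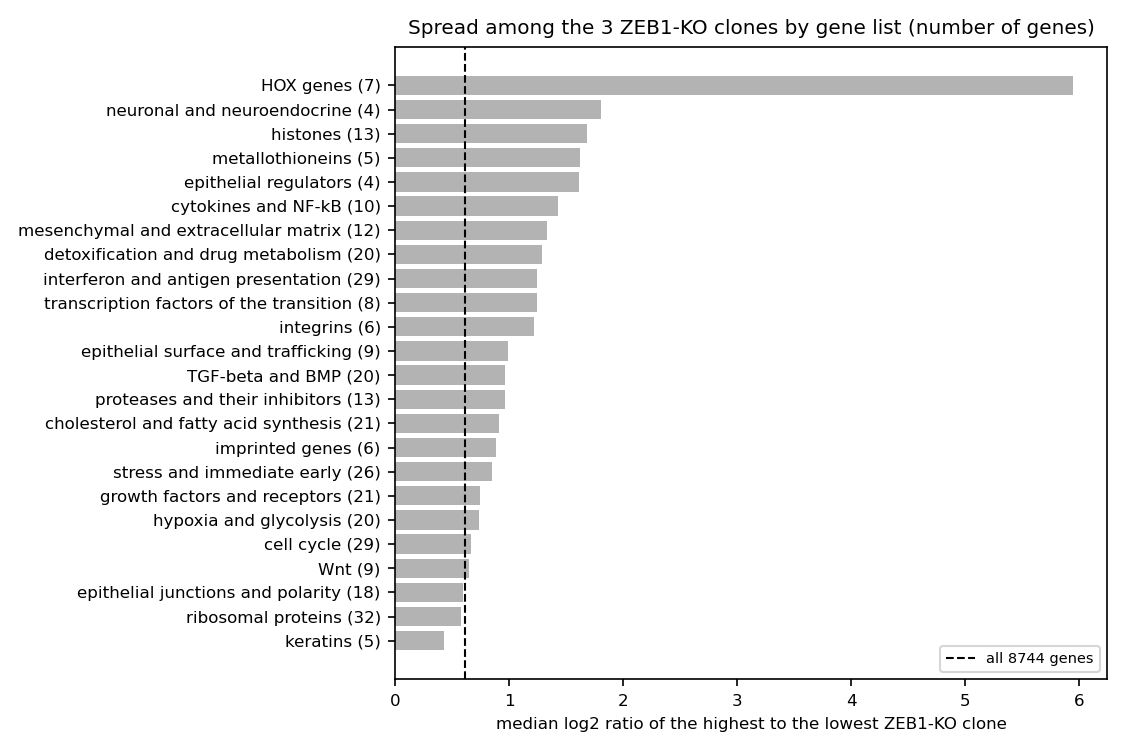
Median log2 ratio of the highest to the lowest ZEB1-KO clone for each gene list with at least 4 genes at a mean of 5 CPM or more (number of genes in brackets). Bars are list medians, and the dashed line is the median over all 8744 genes, 0.61. HOX genes stand far to the right, and keratins, ribosomal proteins and junction genes lie left of the line.

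The base composition of transcripts moved with the clones as well. Genes were put into 5 equal bins by the GC content of their transcripts, known for 95.7% of the 8744 genes. From the bin of lowest to that of highest GC content the median log2 ratio of a clone to the other 2 went from -0.27 to 0.55 in clone 2, from 0.30 to -0.40 in clone 3 and from 0.02 to -0.12 in clone 1. Its part in the differences between clones was not tested beyond subtracting the median of each bin. After that subtraction 65 of the 68 genes still met the rule (all but ACSS1, HOXB2 and MLPH), and the median of the 115 chromosome 12 genes in clone 1 was -1.12.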

How the data were processed

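RNA was measured in 6 libraries, 3 from ZEB1-KO and 3 from WT clones, grouped by the sample titles, and the clones were separate per the series design. The authors deposited raw counts for 26334 gene symbols and, per the file headers, TPM values for 11013 of them. The deposited table of edgeR results was not used here. The submitters' processing notes list the builds hg19 and GRCh37 and the tools edgeR 3.2.2, HTSeq 0.6.1 and TopHat2 2.1.0. Per the labels' protocols, SMART-Seq2 cDNA from an oligo(dT) primer was tagmented and amplified, which favours no strand and can favour transcripts by length and base composition.

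TMM factors were computed with edgeR 4.0.16 in R 4.3.3 on all 6 libraries, over genes kept by filterByExpr (minimum count 10, total 15), and the deposited counts were divided by the scaled library sizes to give CPM. Values under 3 counts were set to 3 counts in ratios. With 1 library per clone no test was made. The rule was tested on simulated data. Apart from genes raised in 1 clone, those data held only counting error between clones. They check how the rule was applied and do not measure clonal variation. Chromosomes and gene order came from RefSeq by symbol for 99.1% of the genes with a mean of at least 5 CPM, and GC content from GENCODE transcripts.

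The genes, gene lists and rules were chosen with earlier results of these data known. Named genes were 13 fixed symbols, per clone the 10 highest and the 5 with the largest ratio among genes high in it, the 5 with the highest level elsewhere among genes low in it, every list member so called and the 10 with the highest minimum TPM. Other genes named, including 18 of the 68, were picked after their values were seen. There were 28 lists. Y-linked genes and genes that mark sex were not named, and 1 of the 68 genes is not reported here by name. Alternatives were library size, RLE or TMM over the ZEB1-KO libraries alone, the deposited TPM, other thresholds, leaving out each clone and, added after the data were seen, subtraction of the median of each of 5 GC bins.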

Additional observations from a re-analysis of the deposited data

How the results depend on the processing

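Of the 50 named members, 50, 49 and 49 stayed at least 8-fold apart under library size, RLE and ZEB1-KO-only TMM scaling. After GC subtraction 48 did so, as did all 36 of them in the TPM table. Their direction could not have changed. The rule asks for 8-fold, and no log2 ratio moved by more than 0.61 under these alternatives. Library size scaling shared all 68 genes of the main set, RLE and ZEB1-KO-only TMM shared 67 (SNAI2 was lost), and TPM shared 35 with 17 not in its table. With TPM the genes high in clones 1, 2 and 3 were 5, 4 and 8 (from 11, 10 and 18), and those low in clone 2 were 9 (from 14). At 5 CPM, 19 were high in clone 1, 18 low in clone 1 and 13 low in clone 3, and at 20 CPM, 7 were high in clone 1 and 4 in clone 2. At 4 times, the high counts were 26, 19 and 38 and the low counts 17, 22 and 25, and at 16 times they were 4, 4 and 10 and 3, 8 and 4. When 1 of the other clones was left out, so that a single comparison remained, the high counts were 28 to 37, 26 to 28 and 42 to 54 and the low counts 26 to 42, 37 to 54 and 28 to 28 in clones 1, 2 and 3. These rise by construction. The 78.9% of genes within 2-fold became 77.5% by library size, 83.8% after GC subtraction, 72.7% at a mean of 1 CPM, 84.4% at 20 CPM and 86.4% to 91.2% without 1 clone. No paired analysis was possible because no test was made and each clone has 1 library. Depth limits genes near 3 counts, most of all in clone 1.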
